A study of Mus musculus with 24 samples.

Results

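Candidate enhancers under 2200 bp that both leukemia enhancer lists hold, and that overlap no region listed in normal progenitors, were examined here. There were 2686 of them, out of 15189 gained regions in the series and 14959 on chromosomes 1 to 19. They were selected by 3 measured properties of the authors' lists. A region had to be in the gained list on chromosomes 1 to 19, measure less than 2200 bp, and overlap at least 1 bp of a k+ region and 1 bp of a k- region. Membership, width and presence in both lists are therefore how the regions were chosen and are given as a description only.

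The study profiled histone marks in C57BL/6 mouse bone marrow cells. Granulocyte-monocyte progenitors (GMP) are the normal myeloid precursors of granulocytes and monocytes, and no fusion gene or treatment is given for them. The leukemia stem cells (LSC) and mature AML cells (mAML) came from a murine leukemia carrying MLL-AF10, grown in medium with fetal bovine serum and WEHI-conditioned medium. Each population had 1 library each for H3K27ac, H3K4me1, H3K4me3 and input, all without treatment. LSC given A-485, which blocks the acetyltransferases p300 and CBP, were not analysed here. The sources used here do not give animal age, how the fusion was introduced, or how many animals or clones were used. The lists named k+ and k- are not tied to LSC or mAML by the labels and keep those names.

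An enhancer is a stretch of DNA, away from the promoter, where transcription factors gather and raise the activity of a gene. Active enhancers usually carry H3K4me1 and H3K27ac, the latter placed by p300 and CBP, whereas H3K4me3 marks promoters. MLL fusions join the DNA-binding part of a histone methyltransferase to a partner such as AF10. They are known for keeping stem-cell genes active in myeloid leukemia. A region's width in such a list reflects how far the marked chromatin reaches, and also how the regions were called.

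The lists hold positions only, with 3 columns and 0 scores, so sequencing depth at each region is unknown. There was no replicate of any list, and regions are not replicates of a condition. No p-value is given. Shares carry exact Clopper-Pearson 95% intervals, which cover counting error only. Neighbouring regions are not independent, so these intervals are too narrow. Positions are on build mm9, counted from 1. Genes, transcript features and DNA sequence at these positions were not analysed here, because the gene and promoter tables at hand are on another build.

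The regions covered 3.44 Mb, which was 20.9% of the autosomal gained length. They contained 2798 of the 9295 autosomal k+ regions, or 30.1% (29.2 to 31.0%), and 2767 of the 13650 autosomal k- regions, or 20.3% (19.6 to 21.0%). The k+ regions inside them had a median width of 800 bp, with quartiles of 400 and 1200 bp. The k+ regions that stood alone as gained regions had a median of 400 bp. For k- the corresponding medians were 1000 and 600 bp. In both lists the regions that made up a narrower shared enhancer had a larger median width than those found in 1 list alone. The rule asks for a meeting with the other list, which a wider region reaches more easily. Part of this difference may therefore be built in, and that part was not tested.

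The median width was 1400 bp, with quartiles of 1000 and 1600 bp. The narrowest measured 200 bp, a single step of the 200 bp grid on which all positions lay, and there were 28 of these. Every step from 400 to 2000 bp held between 127 and 401 regions, and 1400 bp was the most frequent width. Just inside the limit, 304 regions measured 2000 bp and had a median of 1000 bp covered by both lists. Just outside it, 225 shared regions measured 2200 bp, again with a median of 1000 bp covered by both lists. The limit thus passed through a continuous range of widths.

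The narrower shared regions were 20.6% of the 13057 autosomal gained regions under 2200 bp. Nothing is read from this share, since the rule made it. By width the share rose from 1.05% of gained regions of 200 bp (28 of 2679) to 27.8% at 1000 bp (324 of 1165) and 64.8% at 2000 bp (304 of 469). Joining a k+ and a k- region widens the result, so this rise was partly built in.

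**Figure D1:**
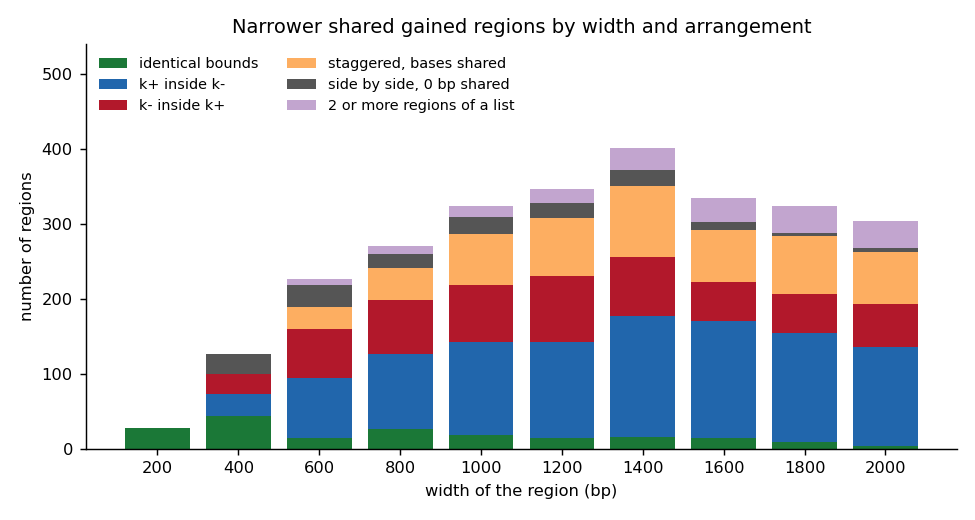
Number of narrower shared gained regions (y axis) at each width in bp (x axis), stacked by how the k+ and k- regions lay within them. All 28 regions of 200 bp had identical bounds, and k+ inside k- was the most frequent arrangement at every width from 600 to 2000 bp.

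The k+ and k- regions seldom had the same bounds. In 2501 of the 2686 regions, 1 k+ region met 1 k- region. Bounds were identical in 190 regions, or 7.07% (6.13 to 8.11%). In 1055 regions, or 39.3% (37.4 to 41.2%), the k+ region lay inside a wider k- region. The reverse held in 569, or 21.2% (19.7 to 22.8%). In 527 regions, or 19.6%, the pair was staggered with some bases in common. Another 185, or 6.89%, held 2 or more regions of at least 1 list.

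The remaining 160 regions, or 5.96% (5.09 to 6.92%), held a k+ and a k- region that lay side by side without a common base. With 6 further regions built from 3 or more pieces, 166 of the 2686, or 6.18% (5.30 to 7.16%), had 0 bp in both lists. Over shared gained regions of any width this share was 4.38%, and it was 1.28% (0.786 to 1.98%) among those of 2200 bp or more. By width it was 27 of 127 at 400 bp, 23 of 401 at 1400 bp, 6 of 304 at 2000 bp and 5 of 225 at 2200 bp. Width is used by the rule, so the difference between the width classes may be built in, which was not tested. These 166 were joined only because the k+ region ended where the k- region began, or the reverse. Their median width was 1000 bp, with medians of 400 bp for both the k+ and the k- part. The k- part was longer in 77, the k+ part in 46, and both were equal in 43. Gaps of 0 bp were more frequent than any longer gap counted, and the largest fall was from 0 to 200 bp. Among 7858 autosomal k+ regions in gained regions, 4423 overlapped a k- region and 252 had their nearest k- region directly adjoining. A further 143 lay 200 bp from the nearest k- region, and 115 lay 400 bp from it. Pairs 200 bp apart counted as separate gained regions.

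Of the 6 regions with no common base that measured 2000 bp, the first 3 in chromosome order are given as examples, chosen after their values were seen. On chromosome 2 in band qA3, the region from 24200201 to 24202200 joined a k- region of 600 bp, ending at 24200800, to a k+ region of 1400 bp starting at 24200801. On chromosome 5 in band qB1, from 32028601 to 32030600, a k- region of 1200 bp met a k+ region of 800 bp. In band qE4 of the same chromosome, from 100314801 to 100316800, a k+ region of 400 bp met a k- region of 1600 bp.

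Among the 2501 pairs, 1 or both bounds were the same in 45.5% (43.6 to 47.5%), and both bounds were within 200 bp in 34.1% (32.2 to 36.0%). Starts were identical in 26.5% and ends in 26.7%. The midpoints of the paired regions were a median of 200 bp apart, with quartiles of 100 and 400 bp, and over 600 bp apart in 4.92%. Of the k+ regions nested in a k- region, 55.0% (51.9 to 58.0%) shared a bound with it. Of the k- regions nested in a k+ region, 64.9% (60.8 to 68.8%) did. Midpoints were within 200 bp of each other in 59.4% (57.5 to 61.3%) of pairs.

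The stretch covered by both lists, called the shared core below, had a median of 600 bp with quartiles of 200 and 950 bp. As a share of the region's width the median was 50%, with quartiles of 28.6 and 66.7%. Summed over all regions, 1.66 of 3.44 Mb, or 48.4%, lay in both lists. A core of 200 bp was found in 520 regions and one of 400 bp in 620. A core of 1000 bp or more was found in 672, or 25% (23.4 to 26.7%). The core took less than 25% of the width in 19.2% of regions and over 50% in 41.6%. Among shared gained regions of 2200 bp or more the median core was 1600 bp and 52.4% of the width. The median proportion held in common was thus close in both width classes, although the core itself was longer in the wider class. A core of over 50% of the width was more frequent in the wider class, at 50.6% (48.1 to 53.1%) against 41.6% (39.8 to 43.5%).

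In 4 regions identical bounds reached the full 2000 bp, and the 3 named here, first in chromosome order, were on chromosome 2. Of these, 2 lay in band qC1.1, from 59892801 to 59894800 and from 59925401 to 59927400. The third lay in band qE2, from 103445201 to 103447200. In qC1.1 the nearest GMP regions were 14.2 and 3.6 kb away and the nearest other gained regions 600 and 2200 bp away. The one in qE2 stood apart, 226 kb from any other gained region.

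At the other extreme, 1 list covered a region of 2000 bp whole and the other a single grid step of it. This was found in 13 regions with k- as the wider list and in 1 with k+ as the wider. On chromosome 7 in band qD3, the region from 91290601 to 91292600 was a k+ region of 2000 bp with a k- region of 200 bp inside it. On chromosome 1 in band qC3, from 72372201 to 72374200, and on chromosome 2 in band qE2, from 103818601 to 103820600, k+ regions of 2000 bp held k- regions of 400 bp. Of the 13 regions with a k- region of 2000 bp and a k+ region of 200 bp inside, 3 lay on chromosome 1 in band qD (91062401 to 91064400), chromosome 2 in band qF1 (131255601 to 131257600) and chromosome 4 in band qD2.3 (131802601 to 131804600). Such regions count as shared by the rule, while 200 to 400 of their 2000 bp were in both lists.

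A few regions were broken up in 1 list. The most pieces in any region was 4, found in 8 regions. On chromosome 2 in band qA1, from 6636001 to 6637800, a k+ region of 1400 bp met 3 k- regions of 200, 400 and 600 bp. The k- region of 200 bp adjoined it without a common base. That of 400 bp lay inside it, and that of 600 bp ran past its end. On chromosome 6 in band qF2, from 124767201 to 124768800, a k+ region of 1400 bp again met 3 k- regions. On chromosome 2 in band qE2, from 103771201 to 103773200, a k- region of 2000 bp covered 3 k+ regions of 200, 200 and 400 bp.

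The k- list covered more of the region than the k+ list more often than the reverse. The medians were 1000 bp of k- and 800 bp of k+ per region. The k- list covered more bases in 1451 regions, or 54.0% (52.1 to 55.9%). The k+ list covered more in 823, or 30.6% (28.9 to 32.4%), and the remaining 412 were equal. The whole region was covered by k- in 48.5% and by k+ in 29.4%. On every one of the 19 autosomes k- covered more in a larger share of regions than k+ did, from 45.4% against 29.5% on chromosome 10 to 61.6% against 24.8% on chromosome 17. As a whole the median region width was 800 bp in both lists. Within every class counted on the autosomes, however, the k- regions had the larger median width. It was 2400 against 1800 bp in shared gained regions of 2200 bp or more. It was 600 bp for k- only against 400 bp for k+ only. Outside the gained list it was 1600 against 1400 bp. The larger width of k- regions was thus not particular to the narrower shared regions. The k- list held more regions and more length, with 13856 regions covering 16.9 Mb against 9404 regions covering 10.4 Mb. How far calling depth set the tilt toward k- was not tested.

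The tilt toward k- was larger at 1600 and 2000 bp than at 1000 bp or less. Width is that of the joined k+ and k- regions and is used by the rule, so part of this may be built in. That part was not tested. At 400 bp k- covered more in 22.8% of regions and k+ in 21.3%, and the rest were equal. At 600 bp k- covered more in 41.4% (34.9 to 48.1%) of regions and k+ in 36.6%. At 1000 bp the shares were 49.1 and 35.2%. At 1600 bp they were 65.6% (60.2 to 70.7%) and 25.7%, and at 2000 bp 62.8 and 28.9%. Among shared gained regions of 2200 bp or more, k- covered more in 66.6% (64.2 to 68.9%) and k+ in 29.4%.

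**Figure D2:**
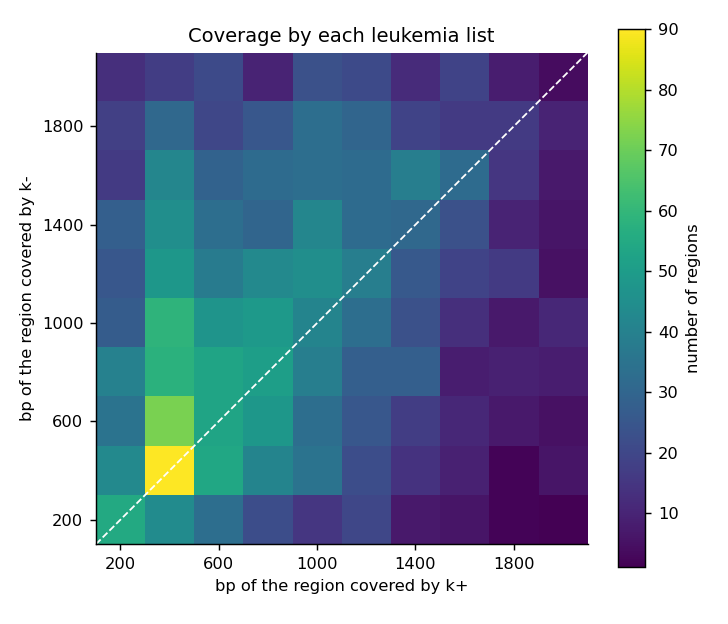
Number of narrower shared gained regions (colour) by the bp of the region that k+ covers (x axis) and the bp that k- covers (y axis), in steps of 200 bp; the dashed line marks equal coverage. The fullest square, with 90 regions, has 400 bp of each list, and 1451 regions lie above the line against 823 below it.

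The balance between the lists within a region went with the kind of gained region beside it. The neighbour is a separate region that the rule did not use, although its class comes from the same k+ and k- lists. Regions are called nearby below where the gap between them was no more than a fixed distance of just under 13 kb, given exactly with the methods. For 1814 regions another gained region lay nearby. Where the nearest was a region of k+ only (401 regions), k+ covered more bases in 40.6% (35.8 to 45.6%) and k- in 46.4% (41.4 to 51.4%). Where it was a region of k- only (804 regions), k+ covered more in 26.9% (23.8 to 30.1%) and k- in 56.2% (52.7 to 59.7%). The share with more k+ was thus 13.8 percentage points higher beside a region of k+ only, and the intervals, which are too narrow, did not overlap. This comparison was added after the data were seen and was not matched for width. Beside another narrower shared region (392) k+ covered more in 27.6% (23.2 to 32.3%). With no gained region nearby (872) it did so in 31.4% (28.4 to 34.6%).

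The share with more k+ kept the same order at each distance examined. With the neighbour no more than 1000 bp away, k+ covered more in 41.8% (33.9 to 50.1%) of 153 regions beside k+ only and 31.2% (25.3 to 37.6%) of 234 beside k- only, and these intervals overlapped. Over 1000 and up to 5000 bp the shares were 44.3% (36.2 to 52.7%) of 149 and 25.8% (21.1 to 30.8%) of 330. Beyond 5000 bp, within the nearby distance, they were 33.3% (24.2 to 43.5%) of 99 and 24.2% (18.9 to 30.1%) of 240, again with overlapping intervals. The share with more k- differed little up to 1000 bp, at 46.4% (38.3 to 54.6%) beside k+ only and 49.6% (43.0 to 56.2%) beside k- only. Over 1000 and up to 5000 bp it was 43.6 and 59.7%, and beyond 5000 bp 50.5 and 57.9%.

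**Figure D3:**
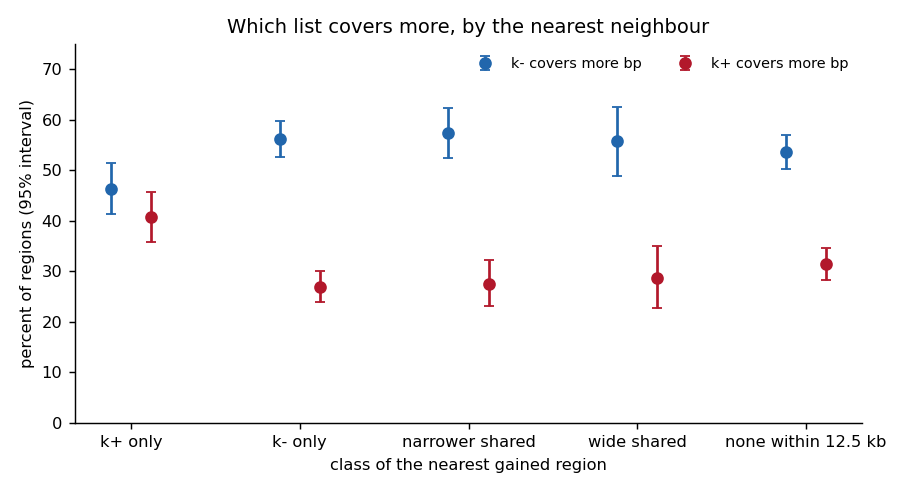
Percent of narrower shared gained regions (y axis, with exact 95% intervals as bars) in which k- (blue) or k+ (red) covers more bp, by the class of the nearest gained region nearby (x axis). The red point is highest, at 40.6%, where the nearest gained region is of k+ only.

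The class of the nearest gained region was also counted. Of the 1814 nearest neighbours, 609, or 33.6% (31.4 to 35.8%), were themselves shared by both lists, 392 of them narrower and 217 wide. For gained regions of k- only the nearest neighbour was shared in 26.6% (25.4 to 27.9%) of 4823, and for k+ only in 30.1% (28.2 to 32.1%) of 2108. Wide shared regions had a shared neighbour in 35.4% (32.6 to 38.2%) of 1147, and all autosomal gained regions in 29.7% of 9892. The intervals for k+ only and for wide shared regions overlapped that of the narrower shared regions, and the interval for k- only did not. Regions of k- only had a nearest neighbour of their own class in 59.4%, and those of k+ only in 37.7%. Over all autosomal gained regions the nearest neighbour was of k- only in 48.9% and of k+ only in 21.4%. The most frequent neighbour of a narrower shared region was one of k- only, in 44.3%, below that share of 48.9%. This class was also the most numerous.

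The regions lay about as close to other gained regions as gained regions did in general. Another gained region lay nearby for 67.5% (65.7 to 69.3%), against 66.1% of all autosomal gained regions. The median distance was 5.80 kb, with quartiles of 1.60 and 18.8 kb. Very close neighbours were fewer in both classes of shared region. Another gained region lay 200 bp away from 134 regions, or 4.99% (4.20 to 5.88%), against 8.56% of all autosomal gained regions, 12.3% (11.2 to 13.5%) of those of k+ only and 8.75% (8.12 to 9.41%) of those of k- only. For wide shared regions the share was 6.04% (4.91 to 7.34%), which overlapped that of the narrower ones. Adjoining k+ and k- pieces are merged into 1 region when the list is made, and the part of this merging in the difference was not tested.

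The narrower shared regions were set beside gained regions of like width that met 1 list, and the shares with a nearby gained neighbour were apart from both other classes at 400 to 600 bp alone. At 200 bp, 82.1% (63.1 to 93.9%) of the 28 narrower shared regions had a nearby gained neighbour, against 77.3% (74.4 to 80.0%) for k+ only and 74.2% (72.1 to 76.2%) for k- only, with overlapping intervals. At 400 to 600 bp, 71.5% (66.5 to 76.1%) of 354 had a nearby gained neighbour, against 60.5% (57.8 to 63.1%) for k+ only and 60.0% (58.1 to 61.9%) for k- only. At 800 to 1000 bp the shares were 67.1% (63.1 to 70.8%), 63.7% (59.4 to 67.8%) and 57.0% (54.4 to 59.6%), and at 1200 to 1400 bp 65.9% (62.3 to 69.3%), 61.0% (54.5 to 67.2%) and 62.9% (59.6 to 66.2%). At 1600 to 2000 bp they were 67.3% (64.2 to 70.2%), 65.3% (56.3 to 73.6%) and 67.4% (63.4 to 71.3%), with overlapping intervals.

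The share with a GMP enhancer nearby was close to that of gained regions in general. A GMP region lay nearby for 566, or 21.1% (19.5 to 22.7%), against 20.2% of all autosomal gained regions. The share was 21.6% (19.6 to 23.7%) for wide shared regions, 20.9% (19.5 to 22.3%) for k+ only and 19.4% (18.5 to 20.3%) for k- only. The median distance to a GMP region was 77.4 kb, with quartiles of 16.6 and 301 kb. The GMP list held 3332 regions covering 2.41 Mb, fewer and less than either leukemia list. How far its calling depth set these distances, or which regions counted as gained, was not tested. A GMP region that had a leukemia counterpart lay nearby for 13.9% (12.6 to 15.3%), against 13.3% of all autosomal gained regions. A GMP region lost in leukemia lay nearby for 9.31% (8.23 to 10.5%), against 9.01%. Both shares were thus close to those of gained regions in general.

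Some regions counted as gained directly adjoined a GMP enhancer. The gap was 0 bp in 44 regions, or 1.64% (1.19 to 2.19%), against 1.29% of all autosomal gained regions. A GMP region lay within 1 kb of 135, or 5.03% (4.23 to 5.92%), against 4.47% of all autosomal gained regions. The adjoining regions with the longest shared cores were on chromosome 8 in band qA1.1 (13335601 to 13337600, core 1600 bp), chromosome 1 in band qE4 (140030801 to 140032800, core 1200 bp) and chromosome 13 in band qD1 (100952201 to 100953400, core 1200 bp). In the last of these k+ and k- had identical bounds.

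The regions farthest from any GMP enhancer lay together on chromosome 8 in band qB2. Those from 60068801 to 60070000 and from 60070601 to 60072000 were 600 bp apart and 11.1 Mb from the nearest GMP region. In the second, k+ and k- had identical bounds over 1400 bp, while in the first k+ covered 400 of 1200 bp. The next, from 58549201 to 58550600, was 10.5 Mb from a GMP region.

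**Figure D4:**
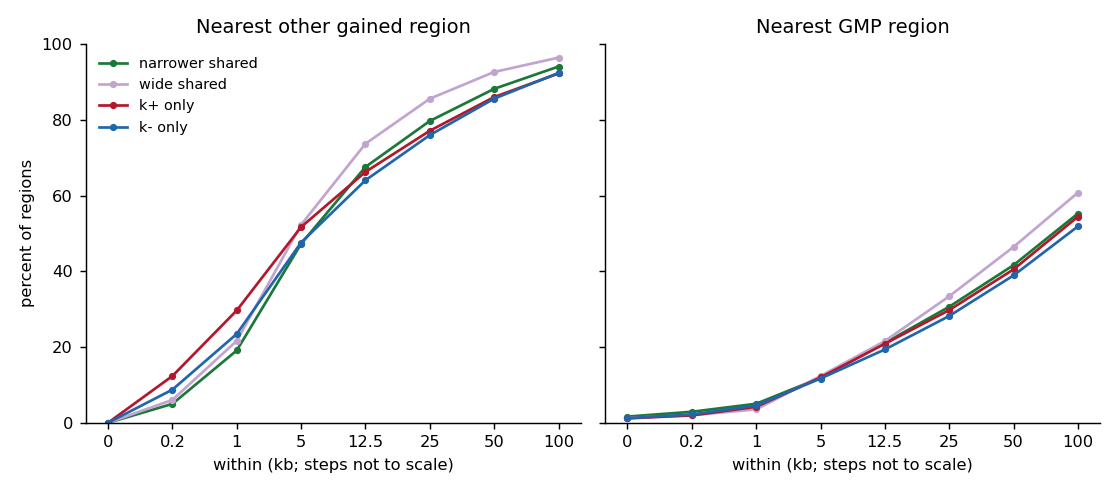
Percent of regions (y axis) with another gained region (left) or a GMP region (right) within the distance on the x axis in kb, whose steps are not to scale, for narrower shared, wide shared, k+ only and k- only gained regions. The narrower shared regions reach 67.5% on the left and 21.1% on the right at the nearby distance, between the wide shared regions and those of k- only.

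Of the clusters and single regions that held a narrower shared region, most held 1 such region. Stitching nearby gained regions gave 8388 clusters and single regions, of which 2234 held a narrower shared region. Of these 2234, 1875 held 1 such region, 292 held 2, 46 held 3 and 21 held 4 or more. In 872 the narrower shared region was the only gained region, so these could hold no more than 1. In 80 all of 2 or more gained regions were narrower shared ones. The like count for the other classes was not made. Clusters of 3 or more gained regions held 44.4% (42.5 to 46.3%) of the narrower shared regions, against 42.0% of all autosomal gained regions and 53.6% (51.1 to 56.1%) of the wide shared ones.

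The cluster with the most lay on chromosome 1 in band qE4, from 130445001 to 130523600. Of its 10 gained regions 6 were narrower shared ones, measuring 800 to 2000 bp, beside 1 of k+ only and 3 of k- only. The 6 regions had 3600 of 8400 bp in both lists. The cluster opened with a region of 1400 bp in which k+ covered 200 bp. The regions starting at 130457601 and 130471001 were covered whole by k+ over 1600 and 2000 bp, with 600 bp of k- in each. The other 3 were covered whole by k-, over 1600, 800 and 1000 bp, with 800, 600 and 800 bp of k+. The balance between the lists thus changed from region to region along 78.6 kb, and 3 GMP regions lay in the same span.

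The cluster on chromosome 2 in band qH3, from 169968801 to 170050400, also held 6, among 21 gained regions. They measured 800 to 1400 bp, and their shared cores of 200, 600, 400, 600, 200 and 600 bp, in order of position, came to 2600 of 6400 bp. The span held 5 GMP regions. The third cluster spanned chromosome 10 from 8467001 to 8498200, in band qA1, with 5 narrower shared regions and 1 of k- only, with 0 GMP regions. There k+ and k- had the same extent in 3 of the 5 regions, of 1200, 400 and 600 bp. In the other two, of 1000 and 2000 bp, k- covered the whole and k+ 400 bp.

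**Figure D5:**
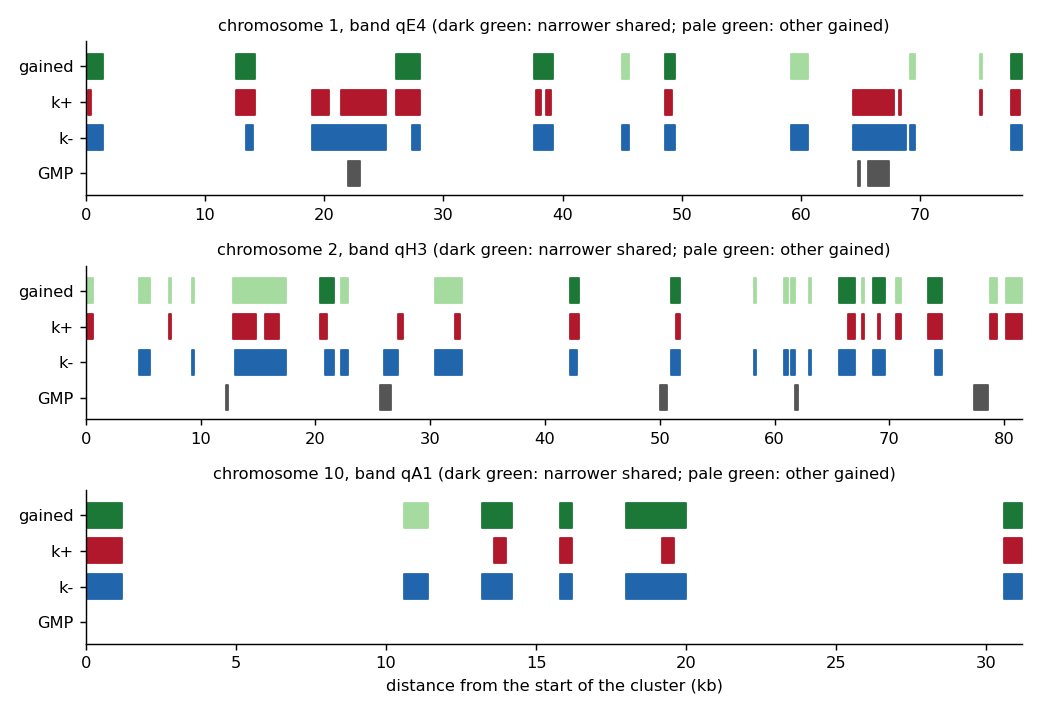
Positions of GMP, k-, k+ and gained regions (rows) along the 3 clusters with the most narrower shared gained regions, as distance from the cluster's start in kb (x axis). Dark green marks the narrower shared regions, 6, 6 and 5 in number, and pale green other gained regions; the chromosome 10 cluster has 0 GMP regions.

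The most isolated of these regions lay more than a megabase from any other gained region. On chromosome 7 in band qB5, from 59237401 to 59238000, a region of 600 bp lay 2.38 Mb from the next gained region and 4.60 kb from a GMP region. On chromosome 2 in band qC1.3, from 64939001 to 64940800, the distance was 2.35 Mb, and k+ covered 1400 of 1800 bp. On chromosome 17 in band qE1.1, from 63392001 to 63393600, it was 1.51 Mb.

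All 19 autosomes held such regions, from 77 on chromosome 18 to 225 on chromosome 2. Per Mb of chromosome the density was lowest on chromosome 14 (0.655) and highest on chromosomes 19 (1.65) and 11 (1.56). Gained regions as a whole were also densest on chromosomes 11 (8.57 per Mb) and 19 (8.40 per Mb). As a share of the gained regions of a chromosome, the narrower shared ones ranged from 14.1% (11.4 to 17.2%) on chromosome 14 to 20.4% (17.8 to 23.2%) on chromosome 10, and these intervals did not overlap. The difference between chromosomes 14 and 10 was singled out after the values were seen, as the extremes of 19.

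Chromosome bands that stain lightly with Giemsa are usually rich in genes. Such bands held 47.2% (45.3 to 49.1%) of the narrower shared regions and 47.2% of all autosomal gained regions, while they make up 41.2% of the length of the autosomes. Among bands of at least 2 Mb, the densest was qD2.3 on chromosome 4, with 17 narrower shared regions among 59 gained ones in 2.86 Mb. It was followed by qA5.2 on chromosome 9 with 10 among 54 and qA4 on chromosome 13 with 12 among 60. These bands were named after their values were seen.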

How the data were processed

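Chromatin immunoprecipitation sequencing had been run on 24 samples, 1 per group, and pooled after indexing, per the labels' protocols. The submitters' processing notes name BWA, Picard, MACS2, HOMER, deepTools and build mm9. The sources used here do not give settings, versions or the rule for an enhancer. The authors deposited 6 region lists without scores, so depth is unknown.

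The gained list was rebuilt here: all 15189 regions equalled merged k+ and k- regions without a GMP overlap, adjoining regions being joined. Overlaps were counted with pandas 2.3.3 and NumPy 2.4.6 in Python 3.11.15, intervals computed with SciPy 1.17.1 and plots drawn with matplotlib 3.10.9. The count of 2686 was checked with bedtools 2.31.1, and the functions were tested on simulated data. Chromosome lengths and bands came from GenomeInfoDb 1.38.1 and circlize 0.4.16 in R 4.3.3, by region midpoint. Distances are gaps in bp, and nearby means a gap of at most 12.5 kb, also used for stitching.

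The members and comparisons were chosen with earlier results of these data known. Named regions are the 3 extremes of each property and the 3 clusters with most members, ties going to the longer shared core. The comparisons by nearest neighbour, by width and by chromosome of list balance, and of directly adjoining regions, were added after the data were seen. Alternatives covered minimum overlap, width limit, distances and chromosomes. Sequence and gene comparisons had been planned and were not run.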

Additional observations from a re-analysis of the deposited data

How the results depend on the processing

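No paired analysis was possible because replicates are absent, with 1 sample a group, and none could be left out. Of 28 alternative values, 15 stayed within 1.5 times a count or inside the interval of a share or median, and 13 did not. Of the 28, 8 were added after the data were seen. The number of regions fell from 2686 to 1672 when each list had to match the region by 50% of both lengths, and to 1724 under 1600 bp. It was 2520 when k+ and k- had to share a base, 2642 without those adjoining a GMP region, and 2701 when gained regions 200 bp apart were joined first. The median shared core was 50% of the width under every alternative run. Identical bounds rose from 7.07 to 31.7% when 200 bp of difference was allowed, and were 9.45% under 1600 bp and 6.09% without regions of 200 bp. A GMP region lay within 5 kb of 11.9% and within 25 kb of 30.6%, and 18.2% had a nearby GMP region of 400 bp or more. Another gained region lay within 5 kb of 47.2% and within 25 kb of 79.7%, and 71.6% had a gained, maintained or lost region nearby. Stitching at 5 and 25 kb put 21.8 and 60.7% in clusters of 3 or more. The alternatives asked for a different limit, set of regions or list of neighbours, and the cause of the moves was not tested. Alternatives set for sequence and nearby genes were not run. Scores are absent, so no stricter calling threshold could be tried.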
